A study of Mus musculus with 6 samples.

Results

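The IFIT genes of the mouse (interferon-induced proteins with tetratricopeptide repeats) were followed in reprogramming fibroblasts with and without activated AKT. The members were taken by symbol, Ifit1, Ifit2, Ifit3 and Ifit3b, and each of the 4 was found among the 54331 genes of the deposited expression table. Their messenger RNA was measured by polyA RNA-seq in 6 libraries. Mouse embryonic fibroblasts (MEFs) from mixed E13.5 male embryos carrying an Oct4-EGFP transgene, of mixed C57BL/6, DBA/2 and ICR background, had received retroviruses for Oct4, Sox2, Klf4 and AKT-MER, an AKT joined to an altered estrogen receptor and switched on by 4-hydroxytamoxifen (4OHT). The OSKA + 4OHT group (3 libraries) was given 4OHT and the OSKA − 4OHT group (3 libraries) its ethanol vehicle, and both were sampled at 10 days postinfection (dpi). All 6 wells therefore held the same transgenes and retroviral vectors and differed in 4OHT, and the 3 libraries of a group were wells of one infected MEF culture. A p-value here measures the spread between wells, and 4OHT itself cannot be told apart from AKT activation in these libraries.

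IFIT proteins are made in response to interferon and to viral RNA. Type I interferon binds the receptor Ifnar1/Ifnar2, the kinases Jak1 and Tyk2 pass the signal on, and ISGF3, a factor that holds Stat2 and Irf9, then binds interferon-stimulated response elements in the promoters of IFIT and other interferon-stimulated genes. Mouse Ifit1 binds the 5′ end of RNA whose cap lacks 2′-O methylation and hinders its translation, Ifit2 is an RNA-binding relative linked to restriction of viruses in nervous tissue, and Ifit3 and Ifit3b are near-identical partners of the family.

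The IFIT genes form 1 cluster on chromosome 19. In the GENCODE annotation of GRCm38 it covers chr19:34550694-34650009, which is 99.3 kb. The order along the chromosome is Ifit2 (ENSMUSG00000045932, chr19:34550694-34576419, plus strand), Ifit3 (ENSMUSG00000074896, chr19:34583531-34588731, plus strand), Ifit3b (ENSMUSG00000062488, chr19:34607970-34613401, plus strand) and Ifit1 (ENSMUSG00000034459, chr19:34640871-34650009, plus strand). A pair of IFIT-like genes on the minus strand stand between them, Ifit1bl1 before Ifit3b and Ifit1bl2 before Ifit1. Ifit1, Ifit3 and Ifit3b each have 1 annotated transcript of 2 exons, with 2656, 1745 and 2000 bases. Ifit2 has a transcript of 3818 bases in 3 exons and a shorter one of 700 bases in 4 exons.

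The sequence just before each start site is shown because the 4 genes share a chromosomal cluster but differed in the letters found in the windows searched. The core of the interferon-stimulated response element, GAAA repeated after any 2 bases (TTTC repeated in the same way on the other strand), was searched on both strands of 300-base windows (250 bases before to 50 after each RefSeq start site, GRCm38.p6). All 4 IFIT genes had a window. Each sequence runs 5′ to 3′ on the plus strand, which is the strand of these 4 genes, with the matched letters in capitals. The stretches are chr19:34640744-34640870 for Ifit1, chr19:34583329-34583528 for Ifit3, chr19:34607757-34607956 for Ifit3b and chr19:34550494-34550693 for Ifit2. That of Ifit1 is the whole interval between the annotated ends of Ifit1bl2 and Ifit1.
Ifit1: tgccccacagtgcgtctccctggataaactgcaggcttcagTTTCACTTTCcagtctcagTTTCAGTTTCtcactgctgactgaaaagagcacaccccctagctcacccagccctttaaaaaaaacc
Ifit3: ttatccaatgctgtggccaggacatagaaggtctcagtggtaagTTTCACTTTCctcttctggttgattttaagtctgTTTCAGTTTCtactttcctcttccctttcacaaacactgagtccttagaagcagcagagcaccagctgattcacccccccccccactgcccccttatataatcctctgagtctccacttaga
Ifit3b: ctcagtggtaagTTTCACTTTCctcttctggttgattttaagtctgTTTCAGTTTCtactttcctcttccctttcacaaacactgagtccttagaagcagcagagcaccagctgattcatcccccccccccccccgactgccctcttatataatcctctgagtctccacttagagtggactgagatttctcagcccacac
Ifit2: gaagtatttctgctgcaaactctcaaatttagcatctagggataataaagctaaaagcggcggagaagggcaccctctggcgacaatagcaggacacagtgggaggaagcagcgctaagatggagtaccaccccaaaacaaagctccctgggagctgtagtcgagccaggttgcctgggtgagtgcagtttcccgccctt

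Ifit1, Ifit3 and Ifit3b each held the letters TTTCACTTTC followed by TTTCAGTTTC. The pair lay 104 and 85 bases before the RefSeq start site of Ifit1, 156 and 122 bases before that of Ifit3, and 188 and 154 bases before that of Ifit3b. The windows of Ifit3 and Ifit3b were 99.2% identical over 260 aligned bases, with 14 gap bases, and the RefSeq start site of Ifit3b lies further downstream within this shared stretch. Neither of the 2 windows of Ifit2 held the letters, which says only that they are not in those windows. Of all 32851 windows, 1131 (3.44%) held a match. The match is a description of the sequence and not a measured binding site. Ifit1 and Ifit1bl2 point away from each other from start sites 146 bases apart, so that the pair of matches before Ifit1 also stands before Ifit1bl2, and each of the 2 windows of Ifit1bl1 held TTTCATTTTC once.

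**Figure D1:**
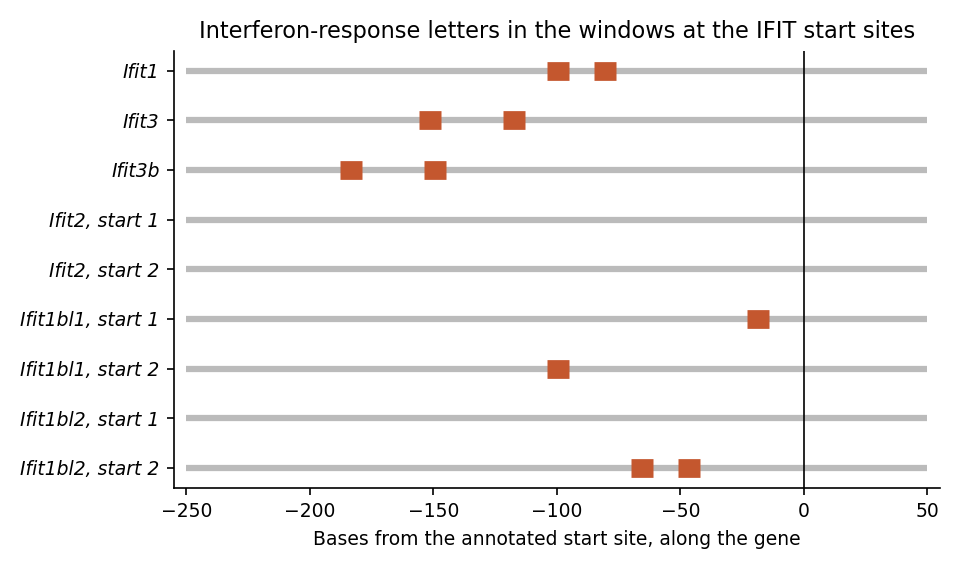
Position of the core letters of the interferon-stimulated response element, on either strand (orange blocks), in bases from the annotated RefSeq start site (0), along each gene, for the windows of the IFIT cluster (grey, 1 line per start site). Ifit1, Ifit3 and Ifit3b have 2 matches each within 188 bases of the start, and neither start of Ifit2 has any.

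Values are in TPM, the share of all transcripts that a gene holds, scaled for transcript length so that levels of different genes can be compared. Ifit1 was at 4.40, 4.24 and 11.1 TPM in OSKA − 4OHT replicates 1, 2 and 3, and at 58.3, 91.8 and 82.8 TPM in the OSKA + 4OHT wells in the same order. The groups were far apart, although control replicate 3 stood above the other two. The mean rose from 6.59 ± 3.94 to 77.7 ± 17.3 TPM (SD, n = 3 per group), which is 11.8 times as high. On the log2(TPM + 0.5) scale the difference was 3.57 with a standard error of 0.397 (limma-trend, Benjamini-Hochberg adjusted p = 0.00812 over 15382 tested genes).

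Ifit3 was at 4.95, 3.74 and 5.28 TPM in the OSKA − 4OHT wells and at 23.3, 41.6 and 60.3 TPM in the OSKA + 4OHT wells. The control wells lay close together and the 4OHT wells spread widely, without any overlap. The mean went from 4.65 ± 0.813 to 41.7 ± 18.5 TPM (SD, n = 3 per group), 8.97 times as high, and the log2 difference was 2.94 with a standard error of 0.367 (limma-trend, adjusted p = 0.0113). Ifit3b was at 2.92, 2.67 and 3.03 TPM without 4OHT and at 15.9, 24.2 and 19.5 TPM with it. Its wells were the most even of the 4 genes in the control group. They held only about 4.29, 7.87 and 4.96 reads, too few for that evenness to be taken as a trait of the gene. The mean went from 2.87 ± 0.185 to 19.9 ± 4.2 TPM (SD, n = 3 per group), 6.92 times as high, with a log2 difference of 2.58 and a standard error of 0.235 (limma-trend, adjusted p = 0.00464).

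Ifit2 was at 2.68, 5.63 and 5.49 TPM in the OSKA − 4OHT wells and at 7.59, 10.2 and 9.45 TPM in the OSKA + 4OHT wells. The groups did not overlap, but the gap between them was narrow. The means were 4.60 ± 1.66 and 9.10 ± 1.36 TPM (SD, n = 3 per group), a ratio of 1.98, and the log2 difference of 0.96 with a standard error of 0.331 did not pass the test (limma-trend, adjusted p = 0.163, unadjusted p = 0.0251). Genes with an adjusted p under 0.05 and a log2 difference above 1 in size were called. By that rule 3 of the 4 IFIT genes were called higher with 4OHT, where 2.87% of all tested genes were (441 of 15382), and none was called lower, where 1.37% of all tested genes were. In rank of the log2 difference over the tested genes, Ifit1 stood 76th, Ifit3 163rd, Ifit3b 316th and Ifit2 2269th. All 4 genes had groups that did not overlap, upward, as did 18.1% of the tested genes.

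**Figure D2:**
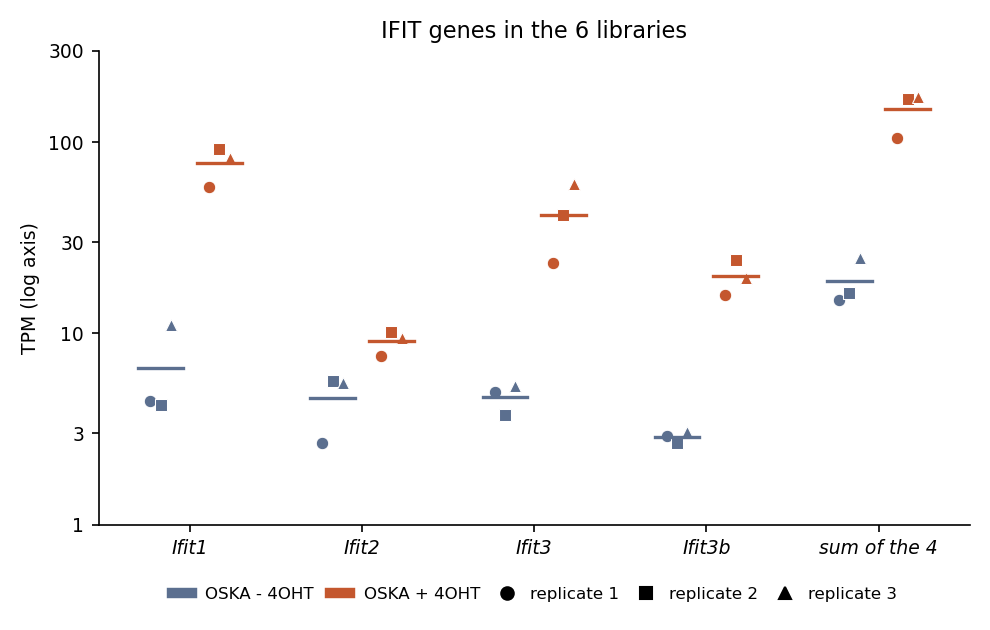
TPM (log axis) of the 4 IFIT genes and of their sum in OSKA − 4OHT (blue) and OSKA + 4OHT (orange), 1 symbol per replicate, with the group mean as a line. In all 4 genes every OSKA + 4OHT well lies above every OSKA − 4OHT well, with the narrowest gap in Ifit2 (5.63 against 7.59 TPM).

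The calls differed in how often they held with fewer wells. Ifit3b was called in 6 of 6 fits with 1 well left out (limma-trend, adjusted p from 0.0300 to 0.0393). Its even control values rest on few reads, and their part in these calls was not tested. Ifit1 was called in 3 of 6, and its adjusted p was 0.0506 without OSKA − 4OHT replicate 2, 0.0544 without OSKA + 4OHT replicate 1 and 0.0617 without OSKA + 4OHT replicate 2. Its log2 difference stayed between 3.35 and 3.99. Ifit3 was called in 2 of 6, with an adjusted p of 0.0552, 0.0628 and 0.0550 without OSKA − 4OHT replicates 1, 2 and 3 in that order and 0.0744 without OSKA + 4OHT replicate 2, at log2 differences between 2.63 and 3.31. Ifit2 was called in none (adjusted p from 0.215 to 0.377). Leaving out a well also leaves the whole table with fewer calls, 134 to 307 higher in place of 441.

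The summed level of the 4 genes keeps every read shared by Ifit3 and Ifit3b, although their transcripts differ in length, so the division still moves the sum somewhat, as can reads that Ifit1 shares with Ifit1bl1 and Ifit1bl2. It was 15, 16.3 and 24.9 TPM in the OSKA − 4OHT wells and 105, 168 and 172 TPM in the OSKA + 4OHT wells. Every 4OHT well was more than 4 times as high as any control well. The mean sum was 18.7 ± 5.43 TPM without and 148 ± 37.6 TPM with 4OHT (SD, n = 3 per group), 7.93 times as high, and no test was made of it because the members had been chosen with earlier results in view. Ifit3 and Ifit3b together went from 7.53 ± 0.998 to 61.6 ± 20.7 TPM, 8.18 times as high. In RNA from whole wells, a higher level in each cell cannot be told apart from more cells with the transcript.

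The make-up of the sum also differed between the groups. Ifit1 held 29.4%, 26.1% and 44.7% of it in the control wells and 55.5%, 54.7% and 48.1% in the 4OHT wells. Ifit2 held 17.9%, 34.6% and 22.0% without 4OHT and 7.23%, 6.10% and 5.49% with it. The shares of both genes were apart between the groups, upward for Ifit1 and downward for Ifit2. The share of Ifit3 was 25.7% ± 6.43 and 27.3% ± 6.81 (SD, n = 3 per group), and that of Ifit3b was 16% ± 3.73 and 13.6% ± 2.01, both with overlapping groups. With 4OHT the order of levels was Ifit1, Ifit3, Ifit3b and Ifit2 in 3 of 3 wells, although the ranges of Ifit1 and Ifit3, and of Ifit3 and Ifit3b, overlapped. Without 4OHT, Ifit1, Ifit3, Ifit2 and Ifit3b followed each other by mean, with overlapping ranges between all neighbours.

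**Figure D3:**
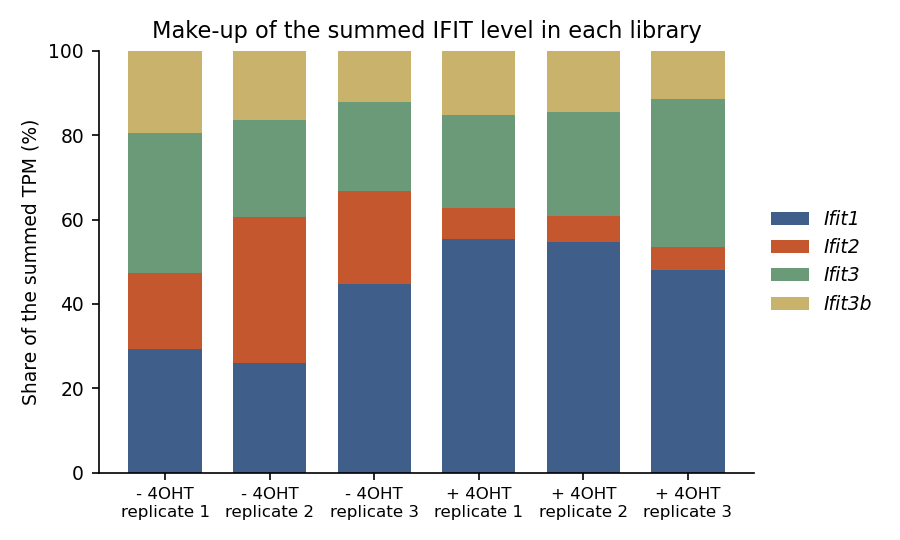
Share of the summed IFIT TPM held by each gene, in percent, 1 bar per library. Ifit2 holds 17.9% to 34.6% of the sum in the OSKA − 4OHT wells and 5.49% to 7.23% in the OSKA + 4OHT wells.

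Whether the members differed in their response was tested on the log2 ratio of each of the 6 pairs, with an exact two-sided permutation test over wells that cannot go below p = 0.1 with 3 against 3. The Ifit1 to Ifit2 log2 ratio was 0.62, −0.37 and 0.96 in the control wells and 2.86, 3.10 and 3.07 in the 4OHT wells, and its mean differed by 2.61 (exact p = 0.1, adjusted over 6 pairs 0.15). The Ifit2 to Ifit3 log2 ratio differed by −1.98 and the Ifit2 to Ifit3b log2 ratio by −1.61, both with groups apart and the same exact p of 0.1. In log2 difference Ifit2 was the smallest of the 4 in these wells. Since an exact p of 0.1 is the least this test can give, it cannot decide whether the members differ. The Ifit1 to Ifit3b log2 ratio was also apart between the groups, by 0.99 (exact p = 0.1), but control replicate 3, at 1.72, came close to the lowest 4OHT well, at 1.85. The Ifit1 to Ifit3 log2 ratio (difference of 0.63, exact p = 0.2) and the Ifit3 to Ifit3b log2 ratio (0.37, exact p = 0.4) overlapped. The Ifit1 to Ifit3 difference was 0.38 without OSKA − 4OHT replicate 1 and 0.96 without OSKA − 4OHT replicate 3. The Ifit3 to Ifit3b difference was 0.05 without OSKA + 4OHT replicate 3 and 0.59 without OSKA + 4OHT replicate 1.

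Single wells also departed from the others in that balance. The Ifit3 to Ifit3b log2 ratio was 0.67, 0.42 and 0.71 without 4OHT and 0.54, 0.77 and 1.6 with it, so that OSKA + 4OHT replicate 3 had the most Ifit3 for its Ifit3b. The same well had the highest Irf1 of its group, an interferon-induced transcription factor, at 36.5 TPM against 12.4 and 12.7, and the highest Socs3, a feedback inhibitor of cytokine receptors, at 522 TPM against 84.1 and 91.9. The part of this well's state in the IFIT values was not tested. Without it the log2 difference of the sum was 2.86 in place of 2.99.

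The IFIT transcripts are alike enough for reads to be shared, so the 4 values are not equally distinct. Of the 50-base words in the transcripts of Ifit3, 51.2% also occurred in Ifit3b, and of those of Ifit3b, 44.5% occurred in Ifit3. The pair was 97.8% identical over 1700 aligned bases. The division of reads between this pair was estimated by the quantification, and each gene's value is uncertain for that reason. Ifit2 shared no such word with any other gene, and Ifit1 shared 7.13% of its words, nearly all with Ifit1bl2 (7.06%). Ifit2 was 75.0% identical to Ifit3 over 264 bases and 74.0% identical to Ifit3b over 285 bases, and no aligned stretch was found between Ifit1 and Ifit2 or between Ifit1 and Ifit3.

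**Figure D4:**
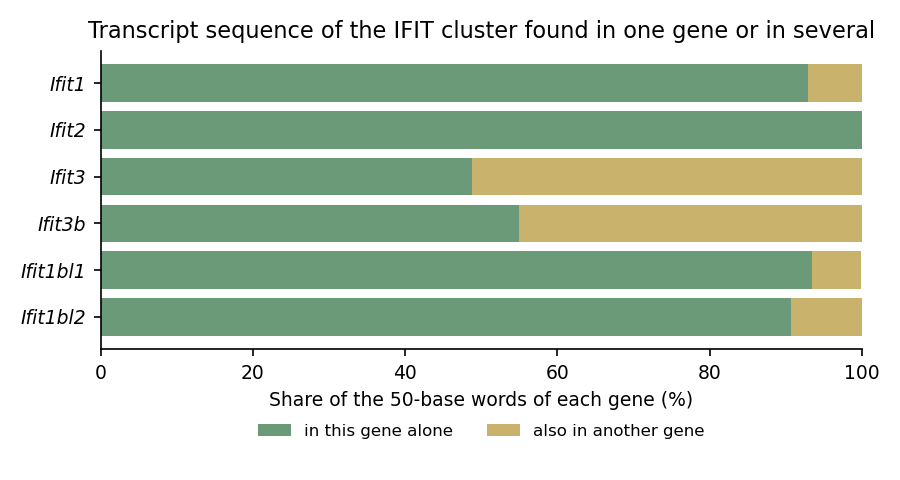
Share of the 50-base words of each gene's transcripts, in percent, that occur in that gene alone (green) or also in another gene (yellow). Ifit2 is at 100% of its own, Ifit1 at 92.9%, and Ifit3 and Ifit3b at 48.8% and 55%.

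The IFIT-like neighbours were low. Ifit1bl1 was at 0, 0.314 and 0 TPM without 4OHT and at 4.28, 9.79 and 4.83 TPM with it. The control wells were below the level of about 3 reads, so only a lower bound can be given, and the mean of 6.30 TPM with 4OHT was at least 4.31 times as high as that level (mean of the 3 control wells). It was called (limma-trend, adjusted p = 0.0196) but in only 2 of 6 fits with a well left out (adjusted p from 0.0462 to 0.0586), failing without OSKA − 4OHT replicates 1 and 3 and OSKA + 4OHT replicates 1 and 2. Ifit1bl1 reached the mean of 1 TPM needed for the test only through the 4OHT wells, so nothing is drawn from that call. Ifit1bl2, which shares the interval with Ifit1, was at 0, 0.457 and 0.337 TPM without and at 0.678, 0.706 and 1.10 TPM with 4OHT, under the mean of 1 TPM needed for the test. Adding both to the sum of the 4 moved its log2 difference from 2.99 to 3.03. Outside the cluster, 11 genes, counted over both sides together, were examined and 8 were tested. None was called higher and 1 was called lower, Acta2, the smooth muscle actin, which fell from 652 ± 73.2 to 116 ± 18.2 TPM (SD, n = 3 per group, limma-trend, adjusted p = 0.00328). Of all tested genes, 2.87% were called higher and 1.37% lower. The only one of the 8 with groups apart upward was Ch25h, cholesterol 25-hydroxylase, named after its values were seen, at 8.16 ± 1.96 and 16.7 ± 3.40 TPM (limma-trend, adjusted p = 0.0899). Groups were apart upward in 18.1% of the tested genes. The median log2 difference of the 8 was −0.05, against 0.14 for all tested genes.

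The values rest on few reads in the control wells. The table holds no counts, but genes with a single transcript rise in rough steps of 1 read, which gave approximate numbers. On that scale the 4 IFIT genes had 4.29 to 33.9 reads per OSKA − 4OHT well and 38.5 to 339 per OSKA + 4OHT well. Ifit3b had the fewest in the controls, 4.29, 7.87 and 4.96 reads. The control wells of replicates 1 and 3 were also the shallowest, at 0.498 and 0.556 of the deepest library, OSKA − 4OHT replicate 2, and the 4OHT wells lay between 0.8 and 0.908. The steps were only moderately sharp, with 37.5% to 40.9% of low values near a whole read against 30% if they were spread evenly.

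The genes above IFIT in the pathway were read next. Of 21 interferon genes, 20 were listed at 0 in all 6 libraries, Ifnb1 and all listed Ifna genes among them, and Ifnz was at 0.404 TPM in OSKA + 4OHT replicate 3 alone. A listed 0 means that no interferon transcript was detectable at this depth in these wells at 10 dpi. Of 9 receptor and ISGF3 genes, all tested, 1 (Stat2) was called higher and none lower, with a median log2 difference of −0.08. Of all tested genes, 2.87% were called higher and 1.37% lower. The receptor chain Ifnar1 was at 24.5 ± 1.58 and 22.9 ± 1.13 TPM and Ifnar2 at 32.4 ± 4.17 and 44.8 ± 4.85 TPM (SD, n = 3 per group), neither called (limma-trend, adjusted p = 0.765 and 0.186). The kinases Jak1 (118 and 84.2 TPM by mean) and Tyk2 (4.63 and 4.68 TPM) were not called either. In 3 of the 9, Jak1, Jak2 (30.5 and 19.0 TPM by mean, adjusted p = 0.0624) and Ifngr1 (31.8 and 21.8 TPM), every 4OHT well was below every control well, as in 10.0% of the tested genes, and none of them passed the test. In another 3, Ifnar2, Stat2 and Irf9, every 4OHT well was above every control well, as in 18.1% of the tested genes.

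Stat2 and Irf9 of ISGF3 were both higher in every 4OHT well than in any control well. Stat2 was at 13.2, 10.3 and 21.9 TPM without 4OHT and at 44.6, 68.8 and 62.9 TPM with it, with a log2 difference of 1.97 and a standard error of 0.319 (limma-trend, adjusted p = 0.0239). It was called in only 1 of 6 fits with a well left out, the one without OSKA − 4OHT replicate 3 (adjusted p from 0.0390 to 0.114 over the 6). Irf9, the DNA-binding subunit, was at 18.8, 24.4 and 40.4 TPM and at 53.5, 50.9 and 50.1 TPM, with groups apart and a log2 difference of 0.94 that was not called (adjusted p = 0.122). Without OSKA − 4OHT replicate 3, the control well with the highest Ifit1, Stat2 and Irf9, the adjusted p of Irf9 was 0.0448 and it was called.

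Among 16 sensors of foreign nucleic acid and factors that induce interferon, all tested, 4 were called higher and none lower, with a median log2 difference of 0.90. Of all tested genes, 2.87% were called higher and 1.37% lower, with a median of 0.14. Zbp1, a sensor of Z-form nucleic acid, was at 23.2, 25.6 and 28.2 TPM without and at 119, 149 and 155 TPM with 4OHT (log2 difference of 2.43, limma-trend, adjusted p = 0.00342). It was called in 6 of 6 fits with a well left out. The RNA helicase sensors Ddx58 (RIG-I), Ifih1 (MDA5) and Dhx58 (LGP2) had log2 differences of 1.14, 1.34 and 2.14 (adjusted p = 0.0289, 0.0268 and 0.0457). With a well left out, the log2 differences of these 3 stayed between 1.02 and 1.33, 1.2 and 1.51, and 1.78 and 2.43, but few calls held. Ddx58 was called in 1 of 6 such fits (without OSKA + 4OHT replicate 1), Ifih1 in 1 of 6 (without OSKA − 4OHT replicate 3) and Dhx58 in none (highest adjusted p of 0.112, 0.113 and 0.160). The count of 4 fell to 1 without OSKA − 4OHT replicate 1 or 2 or OSKA + 4OHT replicate 2, and to 2 without any of the other wells. Irf7, the interferon-induced factor that amplifies the response, was at 7.90, 30.5 and 5.37 TPM and at 58.5, 101 and 43.0 TPM, with groups apart and a wide spread, and was not called (adjusted p = 0.0888). The adaptor Mavs, the kinase Tbk1 and Irf3, the chain that carries the sensor signal, had log2 differences of 0.85, 0.16 and 0.75 and were not called.

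**Figure D5:**
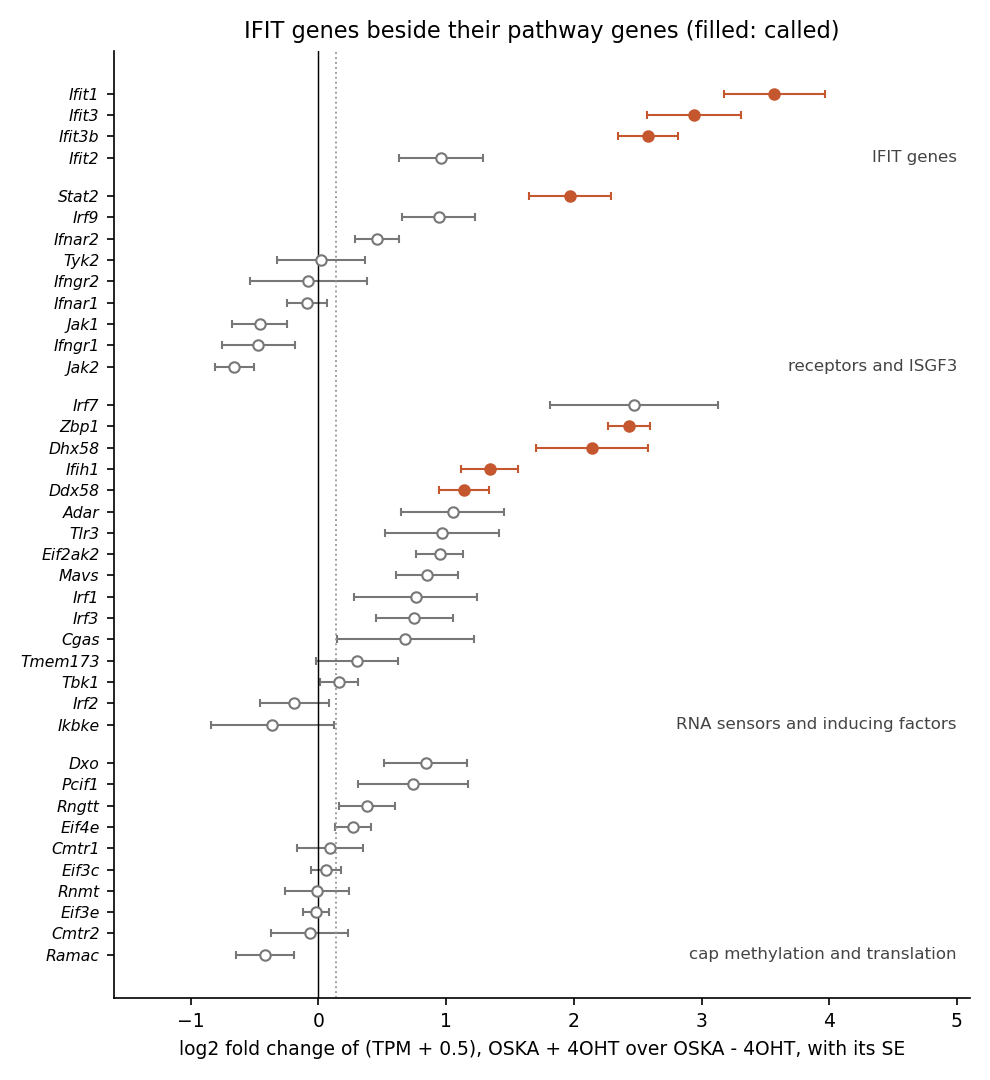
Log2 fold change of (TPM + 0.5), OSKA + 4OHT over OSKA − 4OHT, with its standard error (n = 3 per group), for the IFIT genes and 3 lists of pathway genes, filled where called. Ifit1 (3.57) and Stat2 (1.97) lie at the top of their groups and the cap methylation and translation genes stay within 0.84 of 0, while the dotted line is the median of all tested genes (0.14).

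Beside IFIT, 29 of 30 other classical interferon-stimulated genes were tested. Of these, 18 were called higher and none lower, against 2.87% and 1.37% of all tested genes. Their median log2 difference was 2.01. The groups did not overlap, upward, in 27 of the 29, against 18.1% of all tested genes. Isg15, a ubiquitin-like protein joined to other proteins and named here after its values were seen, was at 18.9, 33.9 and 18.1 TPM without and at 288, 394 and 272 TPM with 4OHT. Its log2 difference was 3.76 with a standard error of 0.285 (limma-trend, adjusted p = 0.00366), and it was called in 6 of 6 fits with a well left out. Mx2, a dynamin-like antiviral protein, was at 0, 0.224 and 0.817 TPM without and at 12.2, 9.28 and 12.3 TPM with 4OHT. The control wells of Mx2 were under about 3 reads, and its 4OHT mean was at least 8.80 times the level of 3 reads (adjusted p = 0.00925, limma-trend). Among the 18, Mx1, Mx2 and Rsad2 had control means of 0.207, 0.347 and 0.8 TPM. They reached the mean of 1 TPM needed for the test only through the 4OHT wells, so nothing is drawn from their calls. Oas3, Oasl1 and Cxcl10, which were not called, did so as well (control means of 0.668, 0.361 and 0.662 TPM). The 27 and the median of 2.01 include all of these genes, and nothing is drawn from their part in either. Mx2 was called in 3 of 6 fits with a well left out, failing without OSKA − 4OHT replicate 2 and OSKA + 4OHT replicates 1 and 2 (highest adjusted p of 0.0600). The count of 18 fell to 5 without OSKA + 4OHT replicate 1 or 2, to 10 without OSKA − 4OHT replicate 2, and to 11 without OSKA − 4OHT replicate 3 or OSKA + 4OHT replicate 3. Of 10 negative regulators of the pathway, 3 were called higher and none lower, where 2.87% and 1.37% of all tested genes were. The largest was Usp18, also among the 18 above, which removes Isg15 from proteins and blocks Ifnar2, at 6.09 ± 3.03 and 49.5 ± 15.7 TPM (SD, n = 3 per group, limma-trend, adjusted p = 0.0168, called in 2 of 6 fits with a well left out, those without OSKA − 4OHT replicate 2 or 3, with a highest adjusted p of 0.0919).

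Genes of the mRNA cap and of translation were then compared. Of 10 genes for cap methylation and cap-dependent translation, none was called, and their median log2 difference was 0.08. Cmtr1, the 2′-O methyltransferase whose mark keeps host RNA from Ifit1, was at 58.6, 31.6 and 55.3 TPM without and at 51.8, 49.2 and 49.0 TPM with 4OHT. Its groups overlapped. Cmtr2 was at 3.69 ± 0.633 and 3.51 ± 0.758 TPM, the cap-binding factor Eif4e at 160 ± 15.9 and 192 ± 22.6 TPM, and the eIF3 subunits Eif3c and Eif3e at 140 ± 7.10 and 146 ± 8.85 TPM and at 254 ± 15.7 and 251 ± 9.12 TPM (SD, n = 3 per group). In TPM, Ifit1 with 4OHT was above the mean of Cmtr1 in every well, and without 4OHT it was below it in every well.

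The 8 tested genes whose profile lay closest to that of the summed IFIT level over the 6 libraries were Ntrk2, Ddx60, 0610012D04Rik, Gm36495, Slfn5, Dio3, Mdk and Zbp1. Closeness was the root mean squared difference of the log2(TPM + 0.5) profiles, each centred on its mean, and ran from 0.131 for Ntrk2 to 0.324 for Zbp1. The members themselves stood at 0.273 (Ifit3), 0.303 (Ifit3b), 0.378 (Ifit1) and 1.034 (Ifit2). Ntrk2, a neurotrophin receptor, was at 0.547, 0.603 and 1.64 TPM without and at 7.63, 10.6 and 12.2 TPM with 4OHT, with its highest control well in replicate 3, as for the sum. Ddx60, an interferon-induced helicase, was at 0.450, 0.538 and 0.710 TPM and at 3.65, 7.74 and 6.74 TPM. Mdk, the growth factor midkine, was the only one of the 8 besides Zbp1 with a control mean above 1 TPM, at 11.2 against 90.2 TPM. 0610012D04Rik and Gm36495 had the same values in all 6 libraries, and they and Dio3 were listed at 0 in the control wells. Apart from Mdk and Zbp1, the 8 genes reached the mean of 1 TPM needed for the test only through the 4OHT wells. Their closeness depends on the pseudocount of 0.5, so nothing is drawn from it.

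Markers of other cells were read beside these values. The fibroblast list was present in all wells, with a summed level of 9490 to 11000 TPM without and 5580 to 6720 TPM with 4OHT, 1 gene called higher (Lum, 7.26 to 39.1 TPM by mean) and 2 lower, the larger fall being that of Pdgfrb (24.5 to 7.5 TPM). Of all tested genes, 2.87% were called higher and 1.37% lower. Pdgfrb was not called without OSKA − 4OHT replicate 2 or OSKA + 4OHT replicate 1 or 2 (limma-trend, highest adjusted p of 0.0576). The list did not move as one. In 3 of its 10 genes (Lum, Thy1 and Dcn) every 4OHT well was above every control well, and in 6 every 4OHT well was below. Of all tested genes, 18.1% and 10.0% were. The 10 macrophage markers summed to 153 to 176 TPM without and 92.5 to 112 TPM with 4OHT, and none was called. Lyz2, the most abundant of them, was at 95.2 and 51.8 TPM by mean, a log2 difference of −0.88 that passed the p threshold (limma-trend, adjusted p = 0.0299) but not the size needed for a call. With a well left out its adjusted p ran from 0.0279 to 0.0987. The lower macrophage sum rests largely on Lyz2. Cd68 (14.9 and 19.0 TPM), Aif1 (0.376 and 1.86 TPM) and Itgam (5.20 and 5.22 TPM) were not lower by mean, and the other macrophage markers were. Of 6 dendritic cell markers, 5 (Itgax, Flt3, Siglech, Xcr1 and Cd209a) were listed at 0 in all libraries, and Zbtb46 was at 1.38 and 1.37 TPM by mean. The 6 endothelial markers summed to 21.4 to 29.9 TPM and 28.1 to 38.2 TPM, with none called and Tek the most abundant. The 8 markers of pluripotent cells summed to 3.77 to 5.59 TPM without and 47.7 to 60.1 TPM with 4OHT. Of the 7 tested, 4 were called higher, against 2.87% of all tested genes. Of the 4, Dppa5a, Nanog (0.247 TPM by control mean) and Zfp42 (0.53 TPM) passed the filter of 1 TPM only through the 4OHT wells. Nothing is drawn from their calls. Among these Dppa5a was listed at 0 in the control wells and at 16.4, 25.7 and 18.5 TPM with 4OHT. The part of the lower summed fibroblast level and the higher summed pluripotency level in the IFIT values was not tested.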

How the data were processed

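RNA of 6 wells was sequenced from polyA libraries. The authors trimmed the reads, quantified them with Salmon and deposited TPM per gene and well, each well adding up to 1000000. Beside them, the authors deposited their own edgeR comparison (log2 fold change, log2 average level, F statistic, p-value), which was not used here. The Salmon version and annotation release are not given in the sources used here. Symbols came from GENCODE M21 on GRCm38 by Ensembl identifier (54097 of 54331 genes matched).

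The groups were compared with limma-trend (limma 3.58.1, R 4.3.3) on log2(TPM + 0.5) with no block, for 15382 genes whose mean reached 1 TPM, and Benjamini-Hochberg adjustment over all of these. The pseudocount makes fold changes of low genes smaller. Calls needed an adjusted p under 0.05 and a log2 fold change over 1 in size. In simulations of 15382 genes with 50 changed at each size, 12%, 56%, 76% and 82% were recovered at log2 sizes of 1, 2, 3 and 4, with 10 false calls in all and 0 calls when nothing was changed, so a gene that was not called is not shown to be unchanged. The members and the gene lists were chosen with earlier results of these data known. The named genes were the 4 members, the gene with the largest rise and the largest fall at adjusted p under 0.05 in each of 14 lists (or the most abundant gene where a list had none), any gene of the receptor and ISGF3, sensor and cap lists, and the 8 genes most like the summed profile. A gene of the receptor and ISGF3 list is not reported here. Irf1 and Socs3 in a single well were added to these rules after their values were seen. So were list genes with control means under 1 TPM and marker genes that did not follow their summed level.

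Approximate reads were taken from steps of TPM times transcript length less 250 bases, over 17139 genes with 1 transcript longer than 600 bases, a value within 0.15 of a whole read counting as near. On simulated steps the error was at most 0.39%. The real steps were only moderately sharp, and whether that error holds for them was not tested. It also leaves out the choice of 250 bases. With 150 or 350 bases taken off instead, the depth of control replicate 1 was 0.536 or 0.478 of the deepest library, in place of 0.498. Shared 50-base words were counted on either strand of the GENCODE transcripts, and identity was taken from BLAST 2.17.0. Promoter windows are those of RefSeq (GRCm38.p6). Since 68.6% of the tested genes had such a window, no comparison of promoters over tested genes was made. Alternatives were other pseudocounts, filters, scalings and variance models, the replicate number as a block, and each well left out.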

Additional observations from a re-analysis of the deposited data

How the results depend on the processing

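Ifit1, Ifit3 and Ifit3b were called higher under each of 7 alternatives (pseudocounts of 0.1 and 2, no filter, a mean of at least 5 TPM, trimmed-mean and quantile scaling, constant prior variance), with log2 differences of 3.28 to 3.66, 2.63 to 3.05 and 2.15 to 2.73. Ifit2 was called under none (0.77 to 1.03, adjusted p from 0.161 to 0.291). The median of all tested genes was 0.144 in log2 and 0.013 after trimmed-mean scaling, where the calls were 360 higher and 312 lower in place of 441 and 210.

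With the replicate number as a block, the log2 differences were by construction the same (3.57, 2.94 and 2.58), and Ifit1, Ifit3 and Ifit3b had adjusted p of 0.0555, 0.0640 and 0.0596 and were not called, while the calls over all genes went to 31 higher and 16 lower, and those in the receptor and ISGF3, sensor and other interferon-stimulated lists to 0, 1 and 4. The study's methods state no pairing of the wells. Deviations from the group means correlated by 0.024, 0.034 and 0.084 between wells of the same number. Between wells of different number the correlations ran from −0.062 to 0.033. OSKA + 4OHT replicate 1 correlated better with OSKA − 4OHT replicate 2 (0.033) than with its own number. Values this low cannot decide whether the wells were paired. The block cannot change the mean log2 ratios between members in this balanced design, and the smallest exact p it allows is 0.25.

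With each well left out in turn, the log2 differences ranged from 3.35 to 3.99 for Ifit1 and from 2.63 to 3.31 for Ifit3, the calls over all genes from 134 to 307 higher and from 65 to 120 lower, and the calls in the 3 lists from 0 to 2, from 1 to 2 and from 5 to 14. The summed IFIT level kept a log2 difference of 2.85 to 3.22. Few reads in the control wells (4.29 to 33.9 per IFIT gene) limit the precision of every ratio given. The cause of the lost calls was not tested, beyond the fewer samples in those fits.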
